A study of Mus musculus with 16 samples.

Results

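Ubiquitin is attached to proteins by a relay of enzymes and taken off again by proteases. The members described here were the 118 genes, of 6288 in the deposited expression table, whose mouse symbol begins with Ube2, Trim, Rnf, Fbxo, Fbxw, Fbxl or Usp followed by a number or letter code. As background, a ubiquitin-conjugating enzyme (E2, the Ube2 genes) receives activated ubiquitin and works with a ligase (E3) that picks the substrate. RING ligases (Rnf and Trim genes) bring E2 and substrate together, and F-box proteins (Fbxo, Fbxw and Fbxl genes) are exchangeable substrate receptors of cullin-RING complexes. Ubiquitin-specific proteases (Usp genes) reverse the mark. In blood-forming cells these enzymes set the turnover of cell cycle regulators, the state of histones, the response to virus and the clearance of proteins and organelles from maturing red cells.

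By family the table held 15 Ube2 genes of 43 in the GENCODE M21 annotation, 23 Trim genes of 69, 35 Rnf genes of 86, 17 Fbxo genes of 36, 7 Fbxl genes of 19, 2 Fbxw genes of 24 and 19 Usp genes of 59. Of the members 116 were protein-coding, Ube2d-ps was a pseudogene and Fbxl12os a transcript annotated as antisense and named for its neighbour Fbxl12. The prefix is a naming rule: Rnf genes share a RING finger and not an ancestry, and some Trim, Rnf and Ube2 products have no shown activity.

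Transcripts were counted by bulk RNA sequencing in 16 libraries of CD45 positive bone marrow cells enriched for the Lin-Ckit+Sca1+ (LSK) population, which contains haematopoietic stem cells and multipotent progenitors. The mice were C57Bl/6J animals, called WT, or Tet2-deficient (Tet2-/-) animals, which lack a dioxygenase of methylated cytosine. They were 3 to 4 months old and of both sexes. Marrow of every group was collected at 3% O2. The enriched cells were then divided. One share stayed at 3% O2 (physioxia) until RNA extraction, and the other was kept in ambient air at about 21% O2 for 6 hours before it. The 4 groups, WT and Tet2-deficient cells in air and in physioxia, had 4 libraries each. Values are read counts divided by a size factor per library (normalized counts), given in replicate order. Differences are on the scale of log2(normalized count + 1) with the standard error of the fit, from limma with Benjamini-Hochberg adjustment over all 6110 genes tested, and a difference is called at an adjusted p under 0.05.

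The libraries held 7.77 to 15.7 M reads in the table. Tet2 itself was at 650 to 993 in WT air against 506 to 626 in Tet2-deficient air, and at 592 to 812 against 447 to 530 in physioxia, so it was lower but present in every Tet2-deficient library. Of 11 markers of LSK cells and CD45, 5 were in the table, among them Kit, Procr, Hlf and Slamf1. Their mean log2 level was 8.89 to 9.47 in WT and 9.88 to 10.5 in Tet2-deficient libraries. Erythroid markers (13 of 14 in the table, none at 0 in any library) had a mean log2 level of 10.1 to 11.1 in WT and 11.7 to 13.8 in Tet2-deficient libraries. Neutrophil, T and NK cell, and basophil and mast cell markers were lower in Tet2-deficient libraries: 5.63 to 6.92 against 7.48 to 9.26, 4.75 to 5.93 against 6.36 to 8.36, and 9.60 to 10.3 against 11.4 to 12.0. Monocyte markers (5 of 9 in the table) were lower too, at 9.89 to 10.2 against 10.7 to 11.6. In such bulk samples, fewer cells of a type and less RNA per cell cannot be told apart. The part of these marker shifts in the genotype differences given next was not tested.

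Short stretches of promoter are shown first for members that the results turn on. They are RefSeq sequence on GRCm38.p6, read 5′ to 3′ on the strand of the gene, with motif matches in capitals. RefSeq promoter windows of 300 bases, from 250 before to 50 after each start, were found for 91 of the 118 members. The interferon-stimulated response element (GAAA, any 2 bases, GAAA), searched on both strands, was in a window of 7 members (7.69%), against 3.89% of the table's genes and 3.99% of all genes with a window. Of those 7, Trim5 and Trim12c (GRCm38.p6 chr7:104288116-104288185 and chr7:104353350-104353408, minus strand), Trim30d (chr7:104507851-104507920, minus strand) and Rnf146 (chr10:29357806-29357875, minus strand) are printed. The first 3 were called higher and Rnf146 lower in Tet2-deficient cells in both oxygen conditions.
Trim5: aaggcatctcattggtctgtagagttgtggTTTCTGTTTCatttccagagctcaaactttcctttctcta
Trim12c: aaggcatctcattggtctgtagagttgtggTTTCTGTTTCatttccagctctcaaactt
Trim30d: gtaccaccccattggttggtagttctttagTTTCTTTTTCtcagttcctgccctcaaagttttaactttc
Rnf146: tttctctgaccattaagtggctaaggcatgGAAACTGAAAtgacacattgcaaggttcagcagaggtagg
Stretches were compared position by position from their first base, without gaps. Those of Trim5 and Trim12c were identical at 57 of 59 compared bases, so their matches lie in near-identical sequence. Those of Trim5 and Trim30d were identical at 35 of 70, a count that misses likeness at shifted positions. The other 3 members with the motif were Fbxo7, Rnf121 and Trim2. Of these, Trim2 was also called higher and Rnf121 lower in both oxygen conditions, and Fbxo7 was called higher in air only.

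Trim10 alone among the members had the GATA motif with flank AGATAAG (1.10% of members, 3.06% of the table's genes). The 250 bases before its start (GRCm38.p6 chr17:36869324-36869573, plus strand) hold the reverse complement of that motif, CTTATCT, and an AP-1 match (motif TGANTCA) that reads TGAGTCA. AP-1 matches were in windows of 10 of the 91 members and of 6.48% of the table's genes. Rnf6 was 1 of 5 members with the hypoxia response core ACGTGC (5.49% of members, 8.85% of the table's genes). Its stretch (chr5:146221052-146221121, minus strand) is shown because Rnf6 was lower in physioxia in WT. The Rnf6 match was a single site that fell in overlapping windows of RefSeq starts inside the annotated span of the gene. A window of Rnf6 further upstream had no match.
Trim10: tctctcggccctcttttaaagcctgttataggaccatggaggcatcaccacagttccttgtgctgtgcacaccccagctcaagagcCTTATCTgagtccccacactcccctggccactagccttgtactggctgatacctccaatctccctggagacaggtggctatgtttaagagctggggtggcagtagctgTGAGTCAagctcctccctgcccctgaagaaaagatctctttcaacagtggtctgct
Rnf6: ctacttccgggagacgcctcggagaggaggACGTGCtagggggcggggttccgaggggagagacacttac
The cell cycle element TTTGAA was in 17.6% of members and 14.9% of the table's genes. These are matches of letters in a window and no measure of binding.

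Most called differences were between genotypes. In air 91 of 118 members (77.1%) differed between Tet2-deficient and WT cells, 49 higher and 42 lower, where 79.5% of all tested genes were called (42.1% higher and 37.4% lower). In physioxia 77 (65.3%) differed, 34 higher and 43 lower, where 69.4% of all genes were called (35.9% higher and 33.6% lower). The members were thus called about as often as the table as a whole. How the genes of the table were chosen is not stated, and with every annotated gene outside it counted as unchanged, the counts were 40 in air and 46 in physioxia, where 39.9% and 40.6% of the tested genes passed. The median difference of the members was 0.30 in air and -0.08 in physioxia, beside 0.24 and 0.06 over all genes. The cells of both oxygen conditions came from divided samples, so calls in both are not independent: 26 members were higher and 34 lower in both, and none was called in opposite directions. This was 65.9% of the calls in air and 77.9% of those in physioxia, against 71.2% and 81.5% over all genes. In 19 members all 8 Tet2-deficient libraries lay above all 8 WT libraries (16.1%, with 17.5% among all genes), and in 21 all lay below (17.8%, with 18.2% among all genes). Without the third and the fourth Tet2-deficient air libraries the count in air was 49, and 45.2% of all genes were called.

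**Figure D1:**
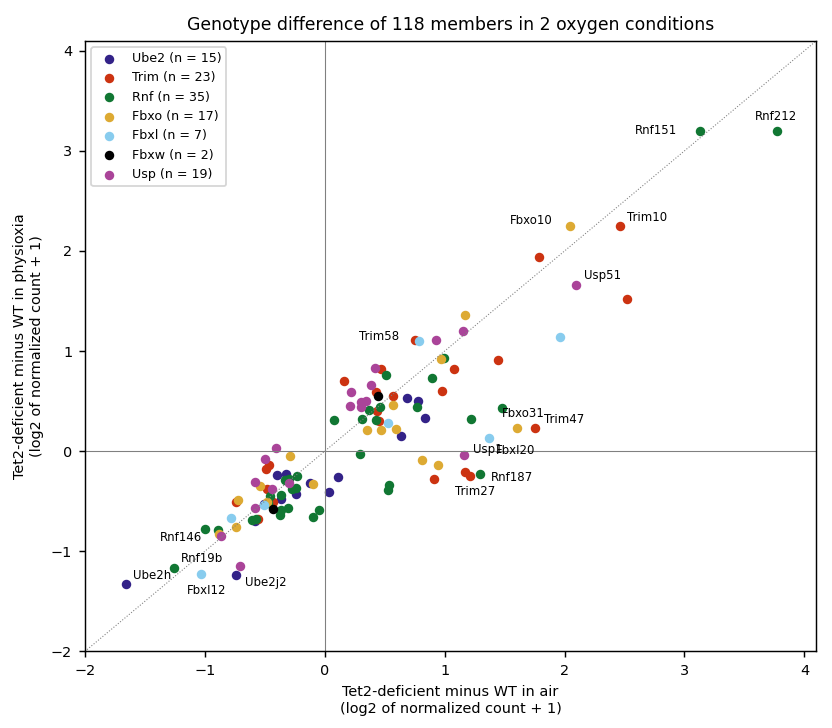
Difference between Tet2-deficient and WT cells for each of the 118 members, in air (x axis) and in physioxia (y axis), on the log2(normalized count + 1) scale; colours mark the 7 families and the dotted line marks equal differences. Most points lie near the dotted line, with Ube2h at -1.65 and -1.33 and Trim10 at 2.46 and 2.25, while Trim27, Usp1, Trim47, Fbxo31 and Fbxl20 lie to the right of it, above 1 in air and between -0.24 and 0.24 in physioxia.

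Counts by family and by role are to be read against the shares over all genes just given, 42.1% higher and 37.4% lower in air and 35.9% and 33.6% in physioxia, and no test was made between families. Among Ube2 genes 4 were higher and 7 lower in Tet2-deficient air, and 1 higher and 8 lower in physioxia. Among Trim genes 15 were higher (65.2%) and 5 lower in air, and in physioxia 8 were higher (34.8%, near the share of all genes) and 4 lower (17.4%). Rnf genes gave 11 higher and 13 lower in air and 10 higher and 18 lower in physioxia. Fbxo genes gave 8 higher and 6 lower, then 3 and 5, Fbxl genes 4 higher and 3 lower, then 1 and 3, and Usp genes 7 and 7, then 10 higher and 4 lower. Of the 2 Fbxw genes, Fbxw11 was lower in both conditions and Fbxw10 higher in physioxia.

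**Figure D2:**
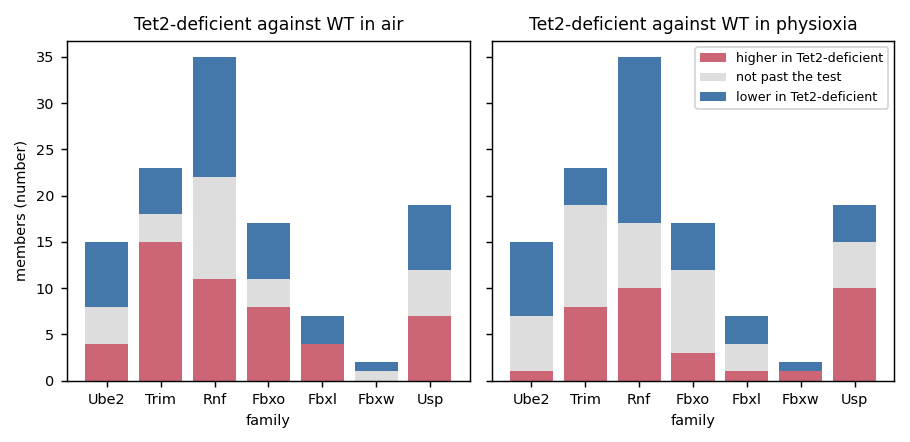
Number of members of each family called higher (red, bottom), not past the test (grey) or called lower (blue, top) in Tet2-deficient cells, in air (left) and in physioxia (right). Trim has the tallest red share in air (15 of 23) and Rnf the largest number of lower members in physioxia (18 of 35).

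Per kilobase of exon, the most abundant members over the 16 libraries were Ube2g2 at 2104, Ube2b at 1958, Usp39 at 1648, Rnf7 at 1647 and Rnf114 at 1643 normalized counts per kilobase. Trim9 at 1.53 and Trim2 at 1.8 were the least abundant. All 118 members passed the filter on low values, 10 or more normalized counts in 4 or more libraries. Of these, 4 (Fbxl12os, Rnf151, Rnf212 and Trim30c) passed through Tet2-deficient libraries alone, so the filter favours a higher level there. They are kept in the counts, also in those by family and by role, and their values are descriptions.

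Among the E2 enzymes, Ube2h had the smallest genotype p of any member in both conditions. Ube2h works with the CTLH ligase complex in red cell maturation. Its normalized counts (GRCm38 chr6:30211289-30304539, minus strand) were 2153, 1919.9, 2113 and 2381 in WT air against 714, 789, 588 and 636 in Tet2-deficient air. In physioxia they were 2059, 1713, 1983 and 2159.5 in WT and 849, 906, 692 and 706 in Tet2-deficient cells. The highest of the 8 Tet2-deficient libraries lay well below the lowest WT library. The difference was -1.65 ± 0.12 (adjusted p = 5.9e-08) in air and -1.33 ± 0.12 (adjusted p = 6.4e-07) in physioxia by limma, and it was past the threshold in all 29 other settings tried.

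Ube2j2, an E2 of the endoplasmic reticulum membrane used in the disposal of misfolded proteins, was at 2464, 2025, 2634 and 1878 in WT air against 1053, 1085, 1385 and 1985 in Tet2-deficient air, and at 3045, 4582, 2819 and 2335 against 1212, 1382, 1369 and 1282 in physioxia. Only in air did the groups overlap, through the fourth Tet2-deficient library. The differences were -0.74 ± 0.21 (adjusted p = 0.006) and -1.24 ± 0.21 (adjusted p = 0.00017). Ube2g2, another E2 of that pathway, differed by -0.51 and -0.53 (adjusted p = 0.00065 and 0.00053). Ube2f, which carries the ubiquitin-like protein NEDD8, was at 3148 to 3623 in WT air against 2065 to 2404 in Tet2-deficient air, a difference of -0.58 ± 0.11 (adjusted p = 0.00043), and at -0.70 in physioxia (adjusted p = 0.00011). Ube2d2a fell in both conditions as well. Ube2a and Ube2b, which act on histone H2B and on PCNA, were called lower in physioxia only, by -0.43 and -0.31, and their interaction terms did not pass the test (adjusted p = 0.73 and 0.63). Of the 4 Ube2 members called higher in air, Ube2d-ps was also called in physioxia. Reads of that pseudogene and of the Ube2d genes it resembles may be divided by the authors' counting, so its value is uncertain.

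Ube2l6 conjugates ISG15, an interferon-induced ubiquitin-like protein, and was also listed here with red cell maturation. It was at 1808, 2189, 1826 and 2071 in WT air against 3115, 3504, 4998 and 2789 in Tet2-deficient air. In physioxia the groups overlapped, with 2169.7, 4824, 2144 and 1845 in WT and 2499.6, 4802, 2971 and 2884 in Tet2-deficient cells. The second WT library was the highest of that condition. The difference was 0.84 ± 0.27 (adjusted p = 0.012) in air and 0.33 ± 0.27 (adjusted p = 0.28) in physioxia, and without that WT library the latter was 0.64 (adjusted p = 0.015).

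Members tied to red cell maturation split between the 2 directions. Of 5 listed members in the table, Trim10, Trim58, Ube2l6 and Fbxo7 rose and Ube2h fell in Tet2-deficient air, and in physioxia Trim10 and Trim58 rose and Ube2h fell. Trim10, an erythroid RING protein required for terminal differentiation in culture, had the largest difference of the members with a mean count of at least 50 (GRCm38 chr17:36869574-36877833, plus strand). Its counts were 182, 325, 123 and 131 in WT air against 614, 561, 2677 and 964 in Tet2-deficient air, and 109.7, 349, 112 and 135 and 462, 2118, 681 and 451 in physioxia. No Tet2-deficient library reached down to the WT range, but the Tet2-deficient libraries were widely spread. The libraries highest for Trim10, the third in Tet2-deficient air and the second in Tet2-deficient physioxia, were also the highest in the erythroid markers, at a mean log2 level of 13.8 and 13.6. The differences were 2.46 ± 0.55 (adjusted p = 0.0017) in air and 2.25 ± 0.55 (adjusted p = 0.0029) in physioxia. Without the third and the fourth Tet2-deficient air libraries the first was 1.73 (adjusted p = 0.029).

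Trim58, which acts on dynein before red cell precursors lose their nucleus, was at 158, 198, 172 and 183 in WT air against 249.6, 225, 560.4 and 251 in Tet2-deficient air. The third Tet2-deficient library was far above the other three. The difference was 0.75 ± 0.27 (adjusted p = 0.02) in air and 1.11 ± 0.27 (adjusted p = 0.0025) in physioxia. Without the third and the fourth Tet2-deficient air libraries the former was 0.42 (adjusted p = 0.16). Fbxo7, an F-box protein that binds parkin and the proteasome regulator PI31, was at 1699.5, 1904, 1806 and 1944 in WT air against 2052, 2345, 2881 and 2174 in Tet2-deficient air, a difference of 0.35 ± 0.12 (adjusted p = 0.017). It was 0.21 ± 0.12 (adjusted p = 0.13) in physioxia. Without those libraries the difference of Fbxo7 in air was 0.26 (adjusted p = 0.12) and that of Ube2l6 0.75 (adjusted p = 0.062). Ube2h was lower in the Tet2-deficient libraries, in which the summed erythroid markers were higher. The part of erythroid cells in these values was not tested.

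**Figure D3:**
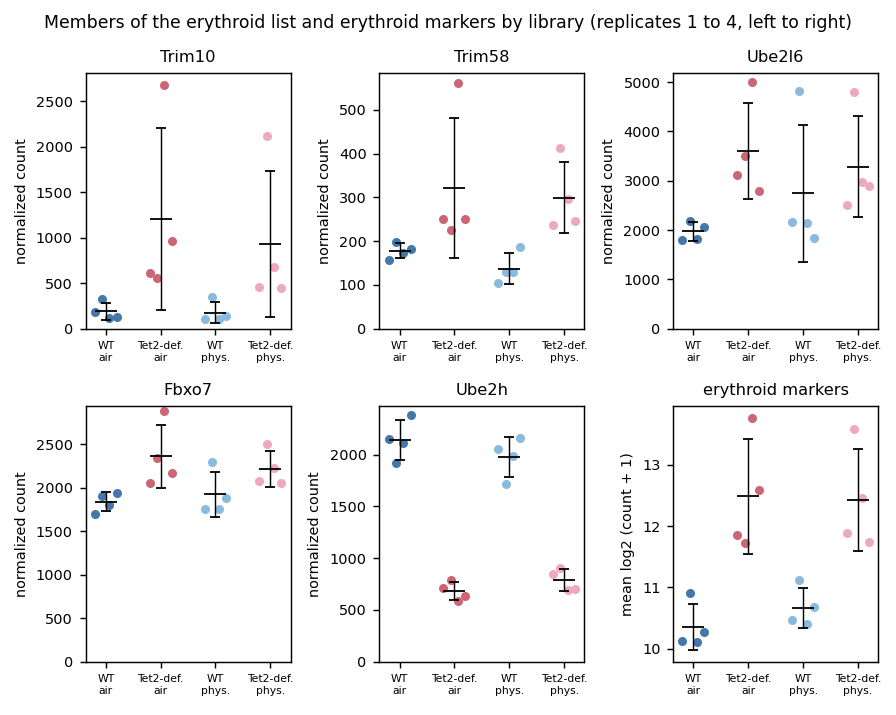
Normalized counts of Trim10, Trim58, Ube2l6, Fbxo7 and Ube2h in each library, and the mean log2(count + 1) of 13 erythroid markers (last panel, whose axis does not start at 0); points are libraries, the horizontal tick and bars are mean and SD (n = 4). Trim10 and the markers peak in the same Tet2-deficient libraries, the third in air (2677) and the second in physioxia (2118), while Ube2h is at most 906 in the 8 Tet2-deficient libraries.

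The tripartite motif (Trim) ligases include antiviral factors that interferon induces. Of 12 listed members of innate immunity in the table, 8 were higher and 2 lower in Tet2-deficient air, and 4 were higher and 2 lower in physioxia. These are 66.7% higher in air, where 42.1% of all genes were, and 33.3% in physioxia, near the 35.9% of all genes. The 8 higher in air include Trim30c, which passed the filter on low values through Tet2-deficient libraries alone. Trim5, Trim12c, Trim30c and Trim30d are related genes on chromosome 7. Their transcripts were not compared here, and how the authors' counting divided reads of related copies is not stated, so their values are uncertain. Trim12c was at 526, 534, 414 and 347 in WT air against 598, 686, 641 and 567 in Tet2-deficient air. In physioxia it was at 432, 354, 379 and 387 in WT and 716, 711, 712 and 599 in Tet2-deficient cells, and the 2 genotypes did not overlap in any condition. The differences were 0.47 ± 0.14 (adjusted p = 0.0085) in air and 0.82 ± 0.14 (adjusted p = 0.00022) in physioxia. Trim30d was at 125, 136, 50.7 and 91.8 in WT air against 203, 216, 160.1 and 175 in Tet2-deficient air, with differences of 0.98 ± 0.25 (adjusted p = 0.0032) in air and 0.60 ± 0.25 (adjusted p = 0.039) in physioxia. The call of Trim30d in physioxia was lost in 8 of 29 other settings. Trim5, related to a retroviral restriction factor, gave 0.57 and 0.55 (adjusted p = 0.0051 and 0.0063). Trim56, an antiviral RING ligase, was at 0.70 ± 0.19 (adjusted p = 0.005) in physioxia and 0.16 ± 0.19 (adjusted p = 0.42) in air, with an interaction of 0.54 ± 0.27 (adjusted p = 0.56). The 2 listed members that were lower in both conditions, Rnf114 and Rnf125, are RING ligases. Rnf125, which acts on the RNA sensor RIG-I, was at 1800.2 to 2207 in WT air against 1322 to 1553 in Tet2-deficient air.

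Trim11 was the lower Trim member with the smallest p over the genotype comparisons. It was at 1724, 1621, 2004 and 1702 in WT air against 1031, 1085, 1025 and 1074 in Tet2-deficient air, with differences of -0.74 ± 0.11 (adjusted p = 7.2e-05) in air and -0.50 ± 0.11 (adjusted p = 0.0014) in physioxia. Trim13, a ligase of the endoplasmic reticulum, fell in both conditions. Trim33, a corepressor needed for normal blood formation, differed by -0.49 in air (adjusted p = 0.017) and by -0.17 in physioxia (adjusted p = 0.37), and the interaction was 0.32 ± 0.24 (adjusted p = 0.67).

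Among the RING finger (Rnf) members, Rnf19b had the largest fall that met the naming rule. It is a RING-between-RING ligase known from natural killer cells and macrophages, and was at 934, 502, 863 and 724 in WT air against 318, 400.3, 284 and 246 in Tet2-deficient air. In physioxia it was at 789, 760.0, 885 and 733 and 332, 352, 348 and 377. All Tet2-deficient libraries lay below all WT libraries. The differences were -1.26 ± 0.18 (adjusted p = 4.4e-05) and -1.16 ± 0.18 (adjusted p = 9e-05). T and NK cell markers were lower in the same libraries, at a mean log2 level of 4.75 to 5.93 against 6.36 to 8.36 in WT, as were monocyte markers, and their part in the result was not tested. The related Rnf19a fell from 2278 ± 328 to 1146 ± 223 in air (mean ± SD, n = 4), a difference of -0.998 ± 0.15 (adjusted p = 5.1e-05), and differed by -0.78 ± 0.15 (adjusted p = 0.00043) in physioxia.

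Rnf146 recognises poly(ADP-ribosyl)ated proteins such as axin. Its counts were 971, 868, 1006 and 951 in WT air against 488, 564, 513 and 479.9 in Tet2-deficient air, and 812, 853, 935 and 913 against 604, 479, 481 and 479 in physioxia. The Tet2-deficient values were tightly grouped, apart from the first physioxia library. The differences were -0.89 ± 0.11 (adjusted p = 9.2e-06) and -0.79 ± 0.11 (adjusted p = 3.1e-05). Exons of Echdc1 on the opposite strand cover 70.2% of the exons of Rnf146, and no source used here states that strand was used in counting, so reads of the pair cannot be told apart.

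RING ligases that act on chromatin were called in both directions. Rnf2, the catalytic subunit of Polycomb complex PRC1, was at 3152 ± 142 in WT air against 2625 ± 319 in Tet2-deficient air, and at 3505 ± 199 and 2689.5 ± 132 in physioxia (mean ± SD, n = 4). These are differences of -0.27 ± 0.09 (adjusted p = 0.018) and -0.38 ± 0.09 (adjusted p = 0.0028). Rnf168, which ubiquitylates histone H2A at DNA breaks, was higher in both conditions by 0.31 and 0.32 (adjusted p = 0.019 and 0.016). Rnf4, a ligase for SUMO-modified proteins, was lower by -0.30 and -0.27 (adjusted p = 0.014 and 0.021). Of 29 other settings, the call in air was lost in 5 for Rnf2, 4 for Rnf168 and 3 for Rnf4. The call in physioxia was lost in 1, 3 and 4 in the same order. Rnf7, the RING subunit that serves cullin 5, was at 2291 to 2422 in WT air against 1885 to 1984 in Tet2-deficient air without overlap, a difference of -0.31 ± 0.14 (adjusted p = 0.057) that missed the threshold. In physioxia it was -0.57 ± 0.14 (adjusted p = 0.0031).

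The largest log2 differences of all belonged to 2 scarce Rnf genes that passed the filter through Tet2-deficient libraries alone, that the naming rule leaves out for their low mean and that were picked after their values were seen. Rnf212, known from meiotic crossovers, was at 0.961, 0.0, 6.61 and 3.83 in WT air against 18, 21.7, 112 and 49.9 in Tet2-deficient air. Rnf151, known from the testis, gave 36 reads over the 4 Tet2-deficient physioxia libraries and 1 read over the 4 WT physioxia libraries. Its ratio, scaled by size factors, was 40.5 with a 95% counting interval of 6.82 to 1644, which covers counting error only. Usp51, a protease of histone H2A ubiquitin, was similarly low in WT: 9.61, 13.1, 19.8 and 3.83 in WT air against 59.7, 55.6, 35 and 39.8 in Tet2-deficient air.

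F-box members with known substrates were found on both sides. Fbxo10, a receptor for the survival protein BCL2, was at 61.5, 113, 102 and 73.7 in WT air against 246, 256, 522 and 477 in Tet2-deficient air, and at 74.3, 80.2, 43.8 and 104 and 284, 414, 371 and 332 in physioxia. The lowest Tet2-deficient library (246) lay above the highest WT library (113). The differences were 2.04 ± 0.30 (adjusted p = 5.3e-05) and 2.25 ± 0.30 (adjusted p = 2.2e-05). Fbxo46 rose by a similar pattern without overlap, 1.17 ± 0.21 (adjusted p = 0.00032) in air and 1.36 ± 0.21 (adjusted p = 0.0001) in physioxia. Fbxl14, a receptor for the transcription factor Snail, was at 597, 606, 652 and 503 in WT air against 1165, 1048, 997 and 858 in Tet2-deficient air, with differences of 0.78 and 1.10 (adjusted p = 0.00096 and 6.2e-05).

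On the lower side, Fbxo11, a receptor for BCL6, was at 392, 321, 395 and 406 in WT air against 222, 253, 255 and 189.6 in Tet2-deficient air, a difference of -0.72 ± 0.17 (adjusted p = 0.0026). In physioxia it was -0.48 ± 0.17 (adjusted p = 0.022), and the second WT library lay within the Tet2-deficient range. Fbxo34 was lower by -0.88 and -0.83 (adjusted p = 0.00014 and 0.00023). Fbxl5, the iron sensor that targets the regulator IRP2, was at 2267 to 2785 in WT air against 1480.1 to 1984 in Tet2-deficient air, a difference of -0.51 ± 0.11 (adjusted p = 0.0016), with -0.53 ± 0.11 (adjusted p = 0.0011) in physioxia. Fbxw11, the beta-TrCP2 receptor for beta-catenin and IkB, was lower by -0.43 in air and -0.58 in physioxia (adjusted p = 0.025 and 0.0062). Its 2 groups overlapped in air, where the first WT library was at 3844 and the fourth Tet2-deficient library at 4439.7.

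Fbxl12 was at 683, 716, 972 and 917 in WT air against 442, 386, 354 and 409.7 in Tet2-deficient air, and at 677, 785, 946 and 907 and 442, 284, 309.9 and 392 in physioxia. The genotypes were apart in all 16 libraries. The differences were -1.03 ± 0.17 (adjusted p = 0.00012) and -1.22 ± 0.17 (adjusted p = 2.7e-05). Ubl5 on the opposite strand covers 37.1% of the exons of Fbxl12, and without strand reads of those exons cannot be told apart. The neighbouring transcript Fbxl12os, which does not overlap Fbxl12, was scarce, at 0.0 to 10.6 normalized counts in WT air and 12.2 to 23 in Tet2-deficient air.

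Among the ubiquitin-specific proteases (Usp), histone-directed members moved in both directions. Usp3, which acts on histone H2A and H2B, was at 2486, 2368, 2543 and 2666 in WT air against 1809, 1866, 1492 and 1585 in Tet2-deficient air, with differences of -0.58 ± 0.09 (adjusted p = 7.7e-05) in air and -0.57 ± 0.09 (adjusted p = 9e-05) in physioxia. Usp3 is outside the naming rule and was chosen after its values were seen, and Usp21 is outside it too. Usp22, the protease of the SAGA complex, was at 8275, 8433, 9518 and 7263 in WT air against 6662, 7036, 5619 and 5382 in Tet2-deficient air, a difference of -0.44 ± 0.18 (adjusted p = 0.036) that was lost in 9 of 29 other settings. Usp22 was not called in physioxia. Usp21 rose in both conditions (0.35 and 0.50, adjusted p = 0.018 and 0.0026). Of 10 listed chromatin members, 4 were higher and 5 lower in air (42.1% and 37.4% of all genes were), and 3 higher and 2 lower in physioxia (35.9% and 33.6%).

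Usp10, which acts on p53 and on stress granule factors, was at 2509.9, 2874, 2732 and 2825 in WT air against 3619, 3914, 3488 and 3319 in Tet2-deficient air, and at 1928, 2105, 2252 and 2635 and 3467, 3685, 3426 and 3464 in physioxia. The genotypes did not overlap in either condition. The genotype differences were 0.39 ± 0.10 (adjusted p = 0.0034) and 0.66 ± 0.10 (adjusted p = 6.4e-05), and the oxygen difference in WT was -0.30 ± 0.10 (adjusted p = 0.088). Usp38 was lower, at 1422, 1515, 1418 and 1493 in WT air against 681, 770.2, 797 and 984 in Tet2-deficient air, with differences of -0.87 ± 0.16 (adjusted p = 0.00039) and -0.85 ± 0.16 (adjusted p = 0.00049). The predicted gene Gm9725 covers 20.5% of its exons on the opposite strand. Usp46, a relative of Usp1 with the same WDR48 activator, was at 289, 318, 307 and 326 in WT air against 428, 445, 888 and 725 in Tet2-deficient air. Its difference of 0.93 ± 0.28 (adjusted p = 0.0096) in air became 0.49 (adjusted p = 0.17) without the third and the fourth Tet2-deficient air libraries, while in physioxia it was 1.11 ± 0.28 (adjusted p = 0.0036). Usp32 rose in both conditions too, by 1.16 and 1.20 (adjusted p = 0.012 and 0.0097). Usp15, Usp24 and Usp40 were called higher in physioxia and not in air (interaction adjusted p = 0.63, 0.56 and 0.64), by 0.45, 0.59 and 0.84. Their differences in air were 0.21, 0.22 and 0.42. Usp44, a protease of the mitotic checkpoint, was lower at -0.70 and -1.15 (adjusted p = 0.048 and 0.0051), and the call in air was lost in 16 of 29 other settings.

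**Figure D4:**
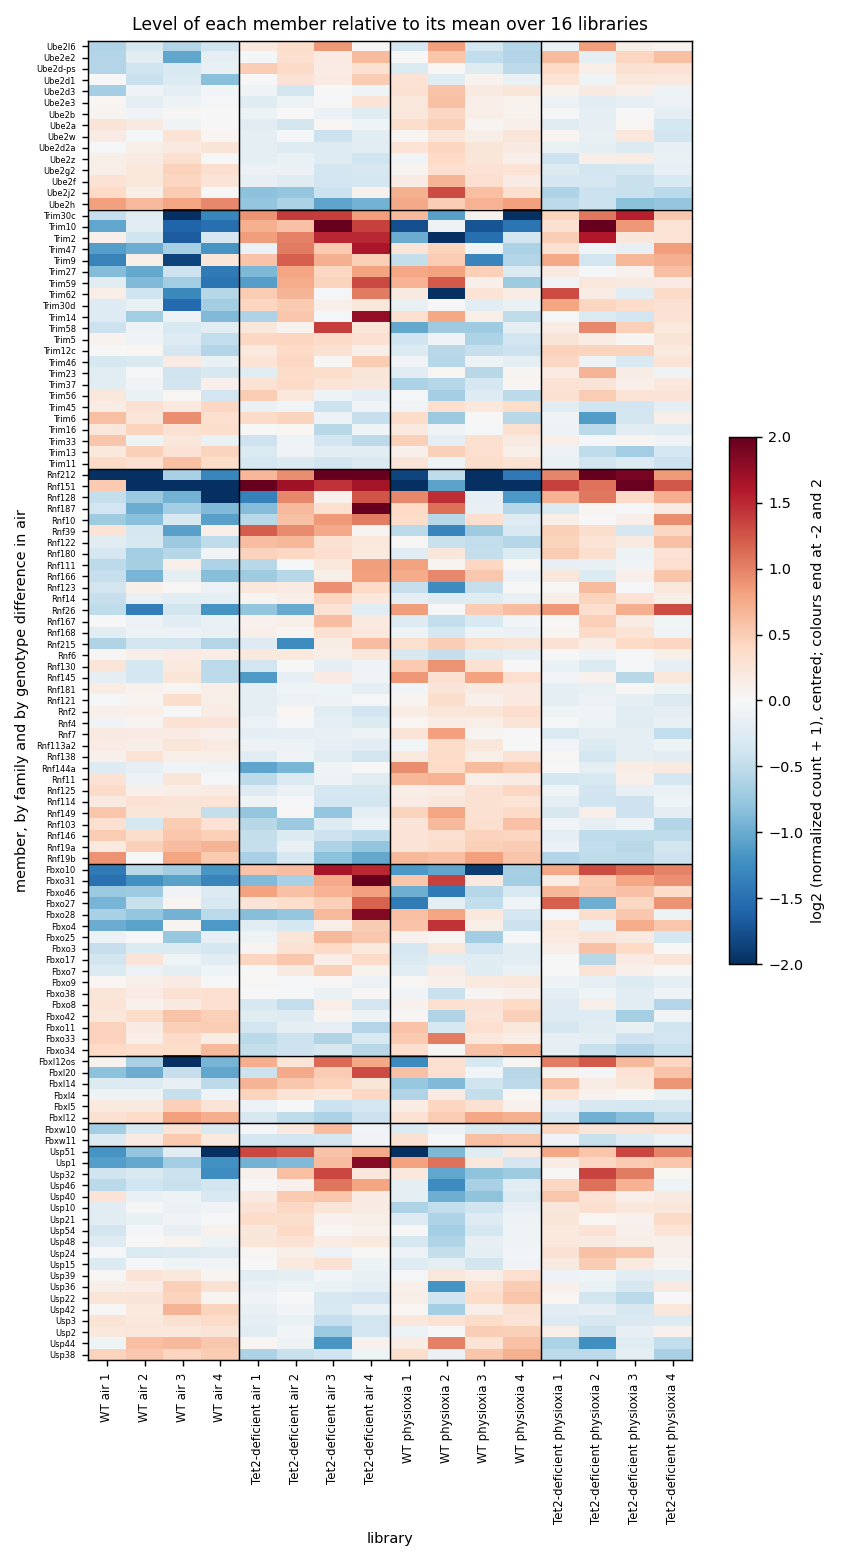
Log2(normalized count + 1) of 117 of the 118 members in each of the 16 libraries, centred on the member's own mean, with members ordered by family and within it by the genotype difference in air; colours end at -2 and 2. Tet2-deficient and WT columns contrast at the top and bottom of each family block, and Trim27, Trim47, Fbxo31, Fbxl20 and Usp1 are low in the WT air columns and in the first Tet2-deficient air column relative to their means.

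Oxygen made few differences. In WT, 7 of 118 members (5.93%) differed between physioxia and air, where 5.76% of all genes were called: 6 were higher in physioxia (4.91% of all genes were) and 1 lower (0.851% of all genes). With the replicate number as a block, since same-numbered WT libraries of the 2 conditions deviated together, 13 members were called, and the share of all genes rose as well, to 7.56%. In Tet2-deficient cells 0 members were called and 7 had an unadjusted p under 0.05, while edgeR called 0 and DESeq2 called 1. Of all genes 0 (0%) were called there by limma and 0.13% by DESeq2. Of the interaction terms, 0 of 118 passed by limma, edgeR and DESeq2 (0% of all genes by limma), and 8 had an unadjusted p under 0.05. No share over all genes was taken at that unadjusted p, here or for the 7 in Tet2-deficient cells.

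Rnf6, the member lower in physioxia, is a nuclear RING ligase. Its counts (GRCm38 chr5:146209192-146221555, minus strand) were 1665, 1764, 1832 and 1799 in WT air against 1306, 1177, 1384 and 1418 in WT physioxia, so that the conditions were well apart. In Tet2-deficient cells they were 1895, 1879, 1766 and 1895 in air and 1627, 1545, 1597 and 1774 in physioxia, which overlap slightly. The oxygen difference was -0.42 ± 0.09 (adjusted p = 0.013) in WT and -0.19 ± 0.09 (adjusted p = 1) in Tet2-deficient cells, and the interaction 0.23 ± 0.12 (adjusted p = 0.57). The WT call was kept with each of the 16 libraries left out in turn. It was lost without the first and the second WT air libraries (-0.46, adjusted p = 0.13).

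Ube2d3, a broadly used E2, rose from 11436, 17289, 16047 and 17519.9 in WT air to 22444, 27012, 20633 and 21619 in WT physioxia, a difference of 0.57 ± 0.14 (adjusted p = 0.024). It was 0.20 ± 0.14 (adjusted p = 1) in Tet2-deficient cells. Rnf144a, a RING-between-RING ligase for a DNA repair kinase, was at 579.7 to 661 in WT air against 914 to 1325 in WT physioxia (0.77 ± 0.21 (adjusted p = 0.037)). Rnf166 was at 702 to 1173 and 1241 to 2621 (1.14 ± 0.31 (adjusted p = 0.04)). Rnf26, a RING protein of the endoplasmic reticulum, was scarce, at 25, 13.1, 27.5 and 15.3 in WT air against 64.9, 36, 51.6 and 55.5 in WT physioxia. Its difference was 1.35 ± 0.34 (adjusted p = 0.026) in WT and 1.24 ± 0.34 (adjusted p = 0.55) in Tet2-deficient cells, and Gm49380 on the same strand covers 56.6% of its exons.

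Trim27, a RING protein of the nucleus and endosomes, was 1 of the 6 raised in WT physioxia, and its 4 groups showed a pattern shared with several other members. Its counts were 2939.6, 2614, 3999.5 and 2011 in WT air against 9156, 9350.1, 7451 and 4398 in WT physioxia. In Tet2-deficient cells they were 2873, 9208, 7137 and 9360.2 in air and 6021, 5196, 5648 and 8078 in physioxia. WT air was the low group, and the first Tet2-deficient air library lay within its range. The oxygen difference was 1.38 ± 0.33 (adjusted p = 0.024) in WT and -0.08 ± 0.33 (adjusted p = 1) in Tet2-deficient cells, and the genotype difference 1.21 ± 0.33 (adjusted p = 0.0057) in air and -0.24 ± 0.33 (adjusted p = 0.53) in physioxia. The interaction was -1.45 ± 0.47 with an unadjusted p of 0.00726 and an adjusted p of 0.55.

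Usp1, the protease of the Fanconi anaemia pathway and PCNA, was at 683, 724, 911 and 631 in WT air against 2558, 3108, 1716 and 1163 in WT physioxia. In Tet2-deficient cells it was at 762, 796, 2249 and 5181 in air and 1633, 1943, 2090.2 and 2144 in physioxia. Only the third and the fourth Tet2-deficient air libraries stood above the WT air range, and the genotype difference in air, 1.16 ± 0.46 (adjusted p = 0.032), was 0.09 (adjusted p = 0.77) without them. Its oxygen difference in WT was 1.45 ± 0.46 (adjusted p = 0.082), past the threshold with the block (adjusted p = 0.041).

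Fbxo31, a receptor for cyclin D1 after DNA damage, had 77.9, 95.6, 105 and 88 in WT air against 119, 142, 375 and 939.6 in Tet2-deficient air. Its genotype difference in air was 1.60 ± 0.52 (adjusted p = 0.013), and without the third and the fourth Tet2-deficient libraries it was 0.51 (adjusted p = 0.26). Trim47 had 204, 219, 278 and 193 in WT air against 405, 892, 629 and 1367 in Tet2-deficient air, with no overlap. Its difference of 1.75 ± 0.32 (adjusted p = 0.0004) remained at 1.44 (adjusted p = 0.0062) without those libraries. Trim47 also had the smallest interaction p of the members, -1.52 ± 0.46 with an unadjusted p of 0.0044 and an adjusted p of 0.55. Fbxl20 had 209.6, 186, 269.8 and 179.9 in WT air against 277, 633, 529 and 917 in Tet2-deficient air, 1.37 ± 0.31 (adjusted p = 0.0016), with an interaction of -1.23 ± 0.43 (unadjusted p of 0.0117). The 8 members with an unadjusted interaction p under 0.05 were Trim47, Trim27, Fbxl20, Ube2e3, Rnf111, Rnf187, Trim59 and Trim14. All had a negative term, that is, a smaller rise or larger fall from air to physioxia in Tet2-deficient than in WT cells. None passed the adjusted test. The signs over all genes at that unadjusted p were not counted, so the shared sign is a description only. Rnf111, a ligase for SUMO-modified proteins in TGF-beta signalling, was at 396, 357, 607 and 370.2 in WT air against 993, 587, 753 and 581 in WT physioxia, 0.75 ± 0.26 (adjusted p = 0.11). With the replicate block the oxygen differences in WT of Rnf111, Fbxo31, Trim47 and Fbxl20 passed the threshold (adjusted p = 0.035, 0.032, 0.038 and 0.048, against 0.11, 0.08, 0.096 and 0.099 without it).

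**Figure D5:**
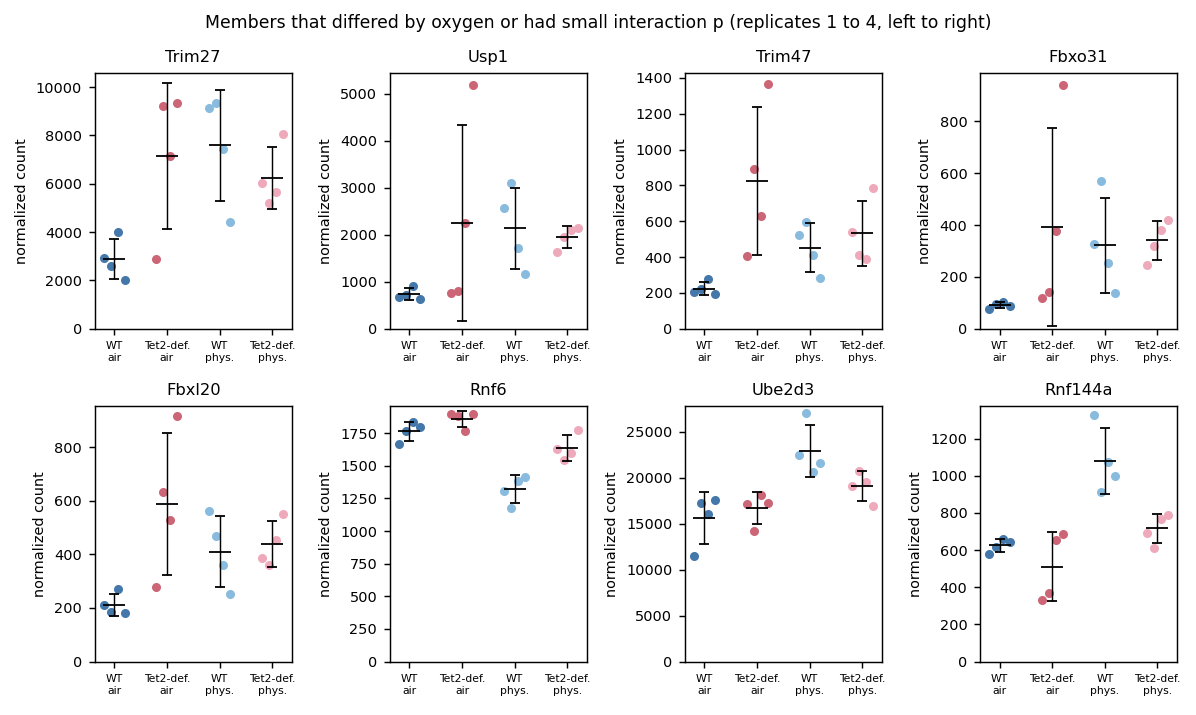
Normalized counts of 8 members in each library by group, with mean and SD (n = 4); points run from replicate 1 to 4 from left to right. In Trim27, Usp1, Trim47, Fbxo31 and Fbxl20 the WT air libraries are low and the first Tet2-deficient air library is the lowest of its group, whereas Rnf6 is lower and Ube2d3 and Rnf144a are higher in WT physioxia than in WT air.

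The count for oxygen in WT depended on single libraries, and so did the share of all genes called. Without the first WT physioxia library only Rnf6 remained (2.09% of all genes were called), and without the fourth 17 members were called (9.07% of all genes). It was 2 without the second WT air, the fourth WT air or the second WT physioxia library (2.49%, 2.09% and 2.7% of all genes). It was 3 without the first WT air or the third WT physioxia library (3.93% and 3.72% of all genes), and 12 without the first Tet2-deficient air library (7.04%). It was 0 without the first and the second WT air libraries together, as it was over all genes.

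Members listed for the cell cycle and DNA damage were mixed. Of 10 in the table, 4 were higher (Fbxo31, Rnf168, Usp1 and Usp51) and 4 lower (Fbxl12, Rnf138, Usp3 and Usp44) in Tet2-deficient air, near the shares over all genes (42.1% and 37.4%). In physioxia 2 were higher and 6 lower, with Ube2a and Ube2b added to the lower ones, where 35.9% and 33.6% of all genes were. Cycling markers (5 of 13 in the table) had a mean log2 level of 9.89 to 10.4 in WT and 10.6 to 11.5 in Tet2-deficient libraries. They did not all move alike: in Tet2-deficient air Ccne1, Cdk1, E2f8 and Plk1 were called higher and Bub1 lower. In physioxia Ccne1, E2f8 and Plk1 were called higher, and Cdk1 and Bub1 were not called. The part of these markers in the values of the members was not tested. The same shares stand beside the short lists that follow. Of 6 members listed for mitochondria and autophagy, 3 were higher and 2 lower in air, and 1 higher and 2 lower in physioxia. Of 5 listed for SUMO, NEDD8 and ISG15 conjugation, 1 was higher and 2 lower in air, and 0 were higher and 3 lower in physioxia.

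The other genes of the ubiquitin system, taken from a list of 233 annotated genes, were in the table for 86. Of these, 34 were higher (39.5%, with 42.1% over all genes) and 27 lower (31.4%, with 37.4%) in Tet2-deficient air. In physioxia 38 were higher (44.2%, with 35.9%) and 27 lower (31.4%, with 33.6%). HECT ligases, which carry ubiquitin on themselves before passing it on, gave 7 of 10 higher and 1 lower in air and 8 higher and 1 lower in physioxia. Cullins with their adaptors and receptors, the scaffold onto which F-box proteins dock, gave 9 of 12 higher and 1 lower in air and 10 higher and 1 lower in physioxia, and neither group was tested against all genes. Skp2, the F-box receptor for the cell cycle inhibitor p27, was at 250.4 ± 41.8 in WT air against 487 ± 121 in Tet2-deficient air (mean ± SD, n = 4), a difference of 0.94 (adjusted p = 0.0015). Cul4a, the scaffold of DDB1-based ligases, differed by 0.63 in air and 0.80 in physioxia (adjusted p = 0.0011 and 0.00017). Mdm2, the ligase for p53, was lower by -0.54 and -0.45 (adjusted p = 0.0012 and 0.0036). Other RING ligases split into 8 higher and 16 lower of 35 in air and 12 and 13 in physioxia. Deubiquitinases outside the Usp family gave 4 higher and 6 lower of 13 in air and 5 and 5 in physioxia, and proteasome genes 4 higher and 1 lower of 10 in air and 2 and 5 in physioxia. Oxygen in WT changed 3 of the 86 (3.49%, with 5.76% of all genes called), all higher, Psme3 and Spopl among them.

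Several well-known relatives of these members, among them Usp7, Usp16, Fbxw7, Trim28, Rnf8 and Ube2c, were not found among the genes of the deposited table. They have no values here.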

How the data were processed

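RNA from 16 libraries (4 groups of 4) was sequenced from paired ends after low-input library preparation, per the labels' protocols. The deposited values are a signal made by the authors: gene read counts divided by 1 size factor per library (normalized counts of DESeq2). FastQC, cutadapt, STAR, HTSeq, DESeq2 and GRCm38 are named, without versions, per the submitters' processing notes. Whole reads were recovered, with 100% of values whole within 0.01.

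Symbols came from GENCODE M21 by identifier (6281 of 6288 genes). The 6110 genes that reached 10 in 4 or more libraries were fitted as log2(value + 1) in limma 3.58.1 under R 4.3.3, using an intensity trend, 1 mean per group and all 16 libraries in 1 fit, two-sided. edgeR 4.0.16 and DESeq2 1.42.0 on recovered reads, other scalings, filters and pseudocounts, a replicate block and left-out libraries were alternatives. The fit was also run on simulated data with independent libraries, in which few genes were changed in a single group. Most genes were called between genotypes here, so that run is no test of those calls. Same-numbered WT libraries of the 2 oxygen conditions deviated together from their group means (correlations 0.332, 0.178, 0.162 and 0.331). The main fit did not pair them, and the replicate block, applied to both genotypes, was an alternative only. In Tet2-deficient libraries the correlations were 0.322, -0.275, 0.0423 and -0.00608.

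Members and lists were chosen with earlier results of these data known. Named were, per oxygen and genotype comparison, up to 8 called members per direction by size, if the mean was 50 or more and the groups were apart; the 3 smallest p where fewer than 3 passed, also for the interaction; in each family the member with the highest mean and the smallest genotype p; and a fixed set of 35, of which 18 were in the table. The rule named 46 members. Further members given with values are outside it, among them Ube2a, Ube2b, Ube2f, Ube2g2, Trim5, Trim33, Trim56, Rnf125, Usp3, Usp21 and Usp51. So are Skp2, Cul4a and Mdm2 among the other genes of the ubiquitin system. None of these was picked by a set rule, so their differences are descriptions. Some items, 1 named member among them, are not reported here and are kept in the counts.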

Additional observations from a re-analysis of the deposited data

Results flagged for a closer look

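In 15 of the 184 groups of 4 libraries screened (46 named members in 4 groups), the highest or lowest library stood far from the other three, which chance alone does in about 1 group in 20. In WT air these were Fbxo11 in the second library (a normalized count of 321, the others 392 to 406), Rnf111 in the third (607, the others 357 to 396), Rnf7 in the fourth (2291) and Usp32 in the fourth (49.7). In Tet2-deficient air they were Fbxw11 in the fourth library (4439.7), Rnf6 in the third (1766) and Trim58 in the third (560.4). In WT physioxia they were Rnf168 (1139), Trim10 (349) and Ube2l6 (4824), all in the second library. In Tet2-deficient physioxia they were Rnf111 in the fourth library (713), Rnf146 in the first (604), Trim12c in the fourth (599), and Trim10 (2118) and Usp10 (3685) in the second. The second WT physioxia library and the second Tet2-deficient physioxia library were also the highest of their groups in the erythroid markers, at a mean log2 level of 11.1 and 13.6, and the third Tet2-deficient air library of its group, at 13.8.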

How the results depend on the processing

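Of the 77 called differences of named members, 44 were past the threshold in all 29 other settings, 33 were lost in at least 1, and 0 reversed. The 7 members called for oxygen in WT became 16 with DESeq2 (8.97% of all genes called) and 13 with the replicate block (7.56%). They became 0 with annotated genes outside the table counted as unchanged (0% of all genes). The count was 0 without the first and the second WT air libraries (0%). It was 1 to 17 with 1 library left out in turn (2.09% to 9.07% of all genes). Without the third and the fourth Tet2-deficient air libraries it was 12 (7.48%). For oxygen in Tet2-deficient cells, 0 became 1 with DESeq2 (0.13% of all genes called). It became 5 without the third and the fourth Tet2-deficient air libraries (2.49% of all genes). The genotype count in air, 91, became 40 with annotated genes counted as unchanged (39.9% of all genes) and 49 without those 2 libraries (45.2%). In physioxia 77 became 46 with annotated genes counted as unchanged (40.6% of all genes). The causes were not tested, apart from the larger number of genes adjusted for where annotated genes were counted as unchanged. The block moved no other count of calls by over 1.5 times. Quantile normalization shifted the median of all genes by -0.12 in air, and 38 members were then higher and 39 lower there, where 70.2% of all genes were called. Depth limits the scarce members: Rnf151, Rnf212 and Usp51 rest on few reads.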
